A study of Homo sapiens with 8 samples.

Results

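RUNX factors, their partner CBFB and the corepressors that work with them were followed as a set of 10 genes, taken by symbol from a table of 61228 gene symbols. The set holds RUNX1, RUNX2 and RUNX3, CBFB, the ETO-family genes CBFA2T2, CBFA2T3 and RUNX1T1, and the TLE genes TLE1, TLE3 and TLE4, and all 10 passed the filter on low counts. The values are raw counts from RNA sequencing of 8 untreated clones of RPMI-8402, an established line grown from T-cell acute lymphoblastic leukaemia. The labels give the genotype WT to clones WT10, WT13, WT28 and WT30. They give the genotype NKX2-1 to clones C12, C15, S04 and S36, which the series design calls NKX2-1 knockout clones. NKX2-1 is a homeobox transcription factor, and the series title names its cooperation with RUNX1. Each clone is 1 library, all clones come from 1 line, and the labels do not say how NKX2-1 was edited or what the letters C and S stand for. The clones are separate, but dates of culture and sequencing are not among the labels, and p-values reflect only how far these clones spread, which may in part be technical.

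RUNX proteins bind DNA through the Runt domain, and CBFB, which does not bind DNA itself, pairs with that domain and strengthens the binding. RUNX factors activate or repress depending on their company. TLE proteins, the human counterparts of fly Groucho, bind the end of RUNX proteins and repress, while ETO-family proteins link DNA-binding factors such as E proteins to nuclear corepressors and histone deacetylases. RUNX1 is a core factor of blood and T-cell development and is often altered in leukaemia. RUNX1T1 and CBFA2T3 are best known as fusion partners of RUNX1 in myeloid leukaemia, and CBFA2T3 also sits in complexes with TAL1, LMO2 and LDB1.

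Promoter sequences are shown for RUNX1, CBFA2T3 and TLE1, whose levels stood apart in S-named clones, and for RUNX3. The RUNX3 window was picked because it holds the RUNX motif, not because the RUNX3 level was unchanged. Each is the 250 bases before a RefSeq start site on GRCh38.p14, written along the gene's own strand, here the minus strand for each. Capitals mark TGTGGT or TGCGGT, the core letters that RUNX proteins bind, or CTCAAG, core letters of NKX2-1 sites, on either strand.
RUNX1, chr21:34888700-34888949: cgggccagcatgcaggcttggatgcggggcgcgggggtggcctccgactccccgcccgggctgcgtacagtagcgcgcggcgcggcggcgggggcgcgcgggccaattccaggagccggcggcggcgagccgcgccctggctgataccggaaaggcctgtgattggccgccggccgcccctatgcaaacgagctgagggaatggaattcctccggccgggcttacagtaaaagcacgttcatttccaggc
CBFA2T3, chr16:88941351-88941600: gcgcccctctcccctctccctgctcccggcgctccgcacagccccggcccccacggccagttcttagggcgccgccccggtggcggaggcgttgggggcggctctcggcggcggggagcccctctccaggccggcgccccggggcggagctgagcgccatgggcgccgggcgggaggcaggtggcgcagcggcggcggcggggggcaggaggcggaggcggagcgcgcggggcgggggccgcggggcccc
TLE1, chr9:81689548-81689797: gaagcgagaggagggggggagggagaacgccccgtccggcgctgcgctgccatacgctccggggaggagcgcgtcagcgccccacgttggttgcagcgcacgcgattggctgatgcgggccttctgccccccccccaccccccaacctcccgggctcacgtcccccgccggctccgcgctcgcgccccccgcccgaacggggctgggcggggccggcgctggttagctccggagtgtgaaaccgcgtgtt
RUNX3, chr1:24965011-24965260: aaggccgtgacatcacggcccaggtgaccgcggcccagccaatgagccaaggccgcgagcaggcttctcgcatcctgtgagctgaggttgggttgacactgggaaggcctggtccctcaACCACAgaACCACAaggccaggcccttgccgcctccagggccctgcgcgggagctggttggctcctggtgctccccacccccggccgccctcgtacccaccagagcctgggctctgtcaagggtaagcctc

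The RUNX3 window, at the outer of the starts listed for this gene, held ACCACA, the reverse complement of TGTGGT, at 131 and again at 123 bases before the start. The other RUNX3 window, chr1:24930277-24930526, held none of the motifs and is not shown. The RUNX1, CBFA2T3 and TLE1 windows held none of them either. In the GENCODE 29 annotation the RUNX1 and CBFA2T3 windows lie in introns of longer models and touch no exon. The TLE1 window overlaps the first exon of a long non-coding gene on the opposite strand, and the RUNX3 window an exon of a RUNX3 transcript with no coding sequence. RUNX2, TLE3 and TLE4 also held RUNX letters in at least 1 of their windows, and CTCAAG stood 25 bases before the inner RUNX2 start. TGTGGT or TGCGGT occurs in 16.3% of all 35116 promoter windows of this length, and CTCAAG in 10.4%. The CBFA2T3 window was 84.4% G and C with 36 CpG steps, the TLE1 window 75.2% with 33 and the RUNX1 window 71.2% with 32, against medians of 58.0% and 11 over all windows. RefSeq windows were found for 8 of the 10 members, not for CBFB or RUNX1T1. A match of letters is a description and not a bound site, and gene-level counts do not say which start was used.

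Library totals ran from 12344549 to 25423215 counts, apart from C15 with 2730285, and mitochondrial transcripts took 12.9% to 15.1% of counts in wild-type clones and 14.8% to 21.2% in knockout clones. NKX2-1 mRNA, given as CPM (counts relative to library size, after TMM scaling), ranged from 11.3 CPM in C15 and 33.4 in S36 to 72.0 in C12 and 83.6 in S04, with wild-type clones at 53.6 to 63.2. An edit within the coding sequence need not change the mRNA level, and the genotype labels are not checked by it. The 12 markers of a T-cell leukaemia line summed to 2330 to 2740 CPM in wild-type and 2130 to 2650 CPM in knockout clones, with CD1A at 0 in S36. Within that list CD5 (101 ± 12.9 against 58.9 ± 16.1 CPM, wild type first, SD, n = 4 each) and CD7 (6.06 ± 0.438 against 2.50 ± 1.23 CPM) were lower in every knockout clone than in any wild-type clone. DESeq2 called both, where it called 3.6% of all genes, while edgeR (adjusted p = 0.138 and 0.152) and limma-voom called neither. The part of CD5 and CD7 in the results was not tested. The groups did not overlap for 10.1% of all tested genes. Of 8 myeloid markers 4 were at 0 in every clone, the defining genes LYZ and ELANE among them, and so was the haemoglobin gene HBB. The 6 B-cell markers summed to 7 to 16.9 CPM with MS4A1 at 0, and the 10 fibroblast and epithelial markers to 6.50 to 21.1 CPM with COL1A2, COL3A1, EPCAM and KRT19 at 0.

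Per kilobase of principal transcript, the wild-type levels fell into a wide order. TLE4 was highest at 48.5 ± 12 CPM per kb (SD, n = 4), RUNX1 was at 32.1 ± 1.51, CBFB at 30.8 ± 1.79, TLE3 at 17.8 ± 1.40, CBFA2T2 at 10.7 ± 0.918 and CBFA2T3 at 8.86 ± 3.95. Below them came RUNX3 at 3.11 ± 0.613, TLE1 at 2.83 ± 0.283, RUNX1T1 at 0.258 ± 0.118 and RUNX2 at 0.133 ± 0.0350 CPM per kb. The wild-type ranges of RUNX1 and CBFB overlapped, as did those of CBFA2T2 and CBFA2T3, CBFA2T3 and RUNX3, RUNX3 and TLE1, and RUNX1T1 and RUNX2. All 4 wild-type clones had the same order at the other 4 steps. RUNX1 was thus the main RUNX gene, with 88.6% to 92.3% of the summed RUNX level per kb in wild-type clones and 84.4% to 95.3% in knockout clones.

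**Figure D1:**
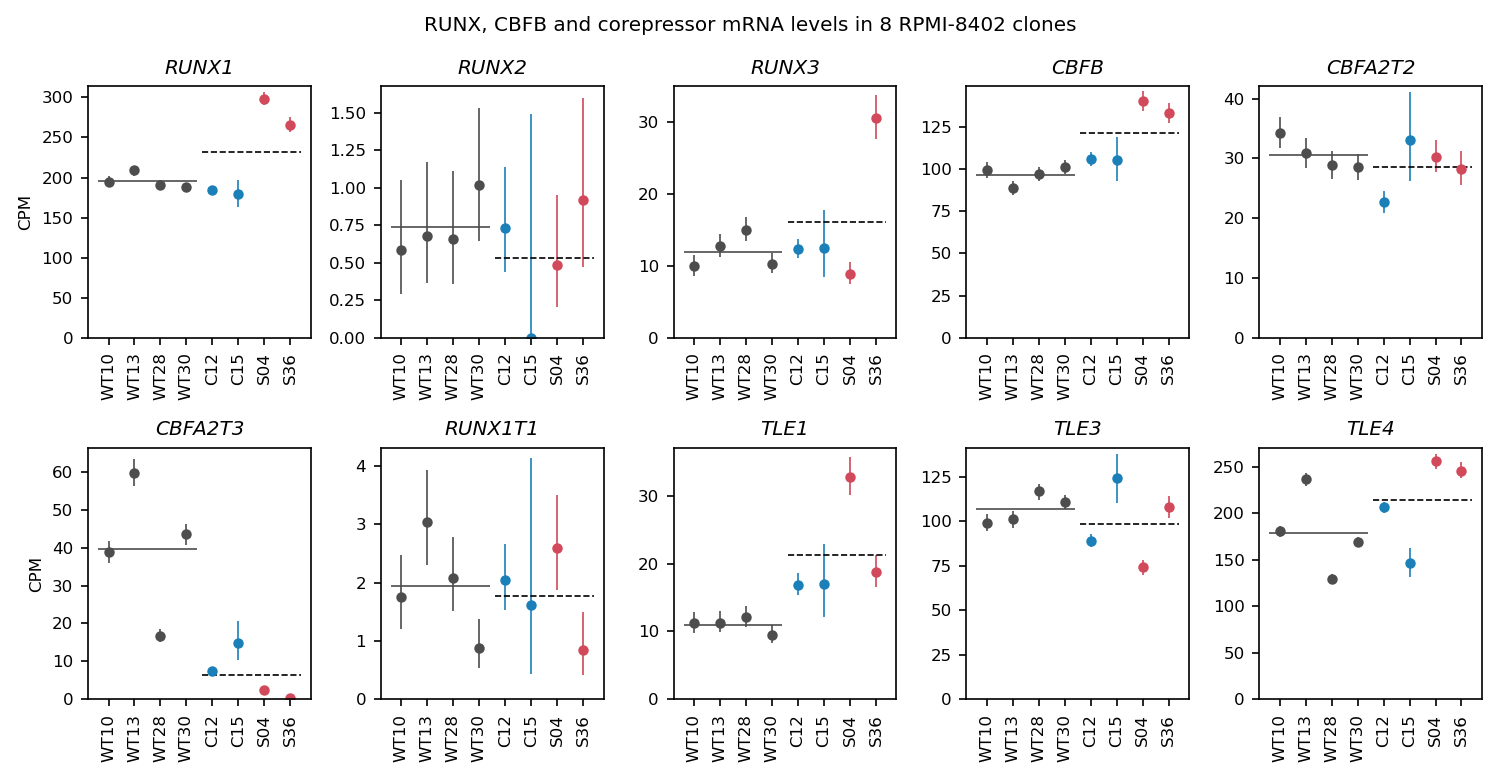
CPM of the 10 members in each clone on linear axes from 0, with wild-type clones in grey, C-named knockout clones in blue and S-named ones in red. Bars are exact 95% Poisson counting intervals, and solid and dashed lines are the means of 4 wild-type and 4 knockout clones. CBFA2T3 lies below 15 CPM in the 4 knockout clones and above 16 in the wild-type clones, while RUNX1 is high in S04 and S36 only.

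Across all 4 knockout clones 0 of the 10 members passed the two-sided edgeR quasi-likelihood test at an adjusted p of 0.05, where 0.316% of the 14243 tested genes did. At an unadjusted p under 0.05 there were 3 members, CBFA2T3, TLE1 and CBFB, where 15.5% of all tested genes reached that level, and these were also the 3 whose groups did not overlap (10.1% of tested genes). DESeq2 called 1 member, TLE1, where it called 3.6% of all genes, and limma-voom called 0, against 0.66% of all genes. The median log2 fold change of the members was 0.08 and that of all tested genes 0.02. The 2 S-named clones alone held 4 members past the threshold against wild type, CBFA2T3 lower and RUNX1, CBFB and TLE1 higher, where 9.65% of tested genes passed, 4.96% lower and 4.69% higher. DESeq2 and limma-voom called the same 4, with 13.6% and 12% of all genes. The 2 C-named clones held 0, with 2 at an unadjusted p under 0.05, 0 called by DESeq2 and 0 by limma-voom. Of all tested genes 0.0351% passed that comparison by edgeR and as many by limma-voom, 0.541% passed by DESeq2, and 7.66% had an unadjusted p under 0.05 by edgeR. Both comparisons share the wild-type clones. Their fit assumes the same spread of a gene in all groups. The median SD of log2 CPM, over genes with a mean of at least 5 CPM, was 0.13 in wild-type and 0.38 in knockout clones. The p-values for S-named and C-named clones rest on that assumption and may be too small.

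**Figure D2:**
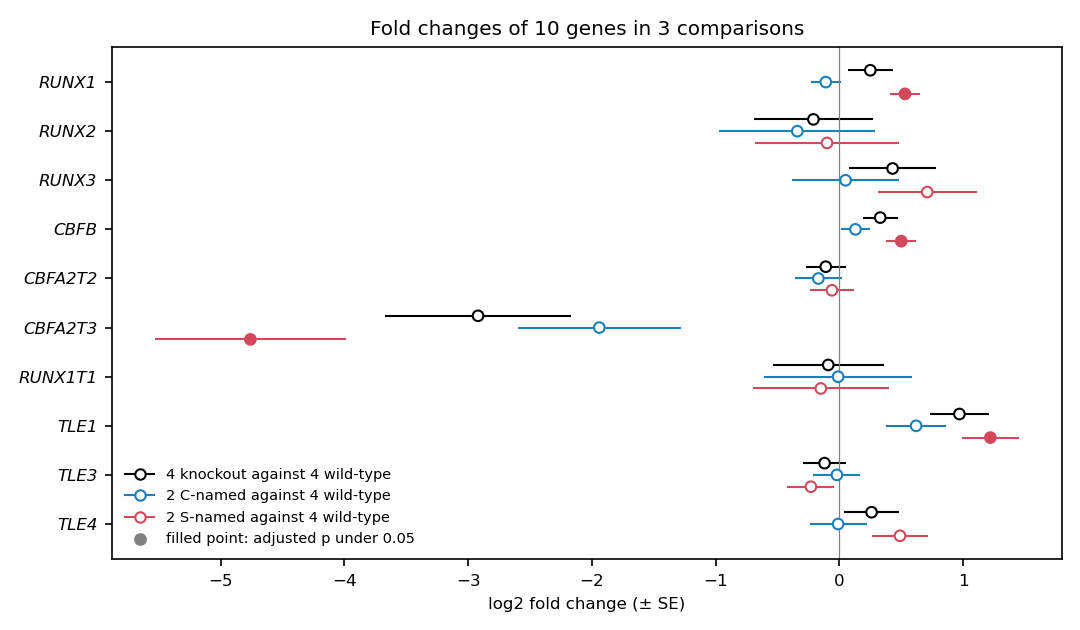
Log2 fold changes of the 10 members from edgeR for all knockout clones (black), C-named clones (blue) and S-named clones (red), each against the same 4 wild-type clones. Bars are standard errors derived from the F statistic of the test. Filled points have an adjusted p under 0.05, which holds for RUNX1, CBFB, CBFA2T3 and TLE1 in S-named clones and for no member in the other comparisons.

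Among the RUNX factors RUNX1 differed between knockout clones by letter. It stood at 298 CPM in S04 and 266 in S36, at 184 in C12 and 180 in C15, and at 195, 209, 191 and 188 in WT10, WT13, WT28 and WT30. Both S-named clones thus lay above every wild-type clone and both C-named clones below every one. The C-named part is within counting error, since the 95% intervals of C12 (178 to 189 CPM) and C15 (163 to 197) include the WT30 level. In S-named clones RUNX1 rose 1.44-fold (log2 fold change 0.53, SE 0.12, edgeR adjusted p = 0.0287), and in C-named clones it was at a log2 fold change of -0.11 with an SE of 0.12 (edgeR adjusted p = 0.867). The difference between the letters itself, C minus S, was -0.63 (SE 0.14, edgeR adjusted p = 0.0803), so it missed the threshold by edgeR and passed by DESeq2 (adjusted p = 0.0129). Of all genes 0.358% passed this comparison by edgeR, and 0 members did, with 3 at an unadjusted p under 0.05 (17.1% of all genes). DESeq2 called 1 member, RUNX1, and 4.4% of all genes, and limma-voom 0 members and 0.625% of all genes. The rise in S-named clones lost its call when any 1 wild-type clone was left out (edgeR adjusted p 0.0742 to 0.112), without S04 (0.0785) and with no low-count filter (0.104). The 105 tested genes within 10 Mb of RUNX1, which lies on chromosome 21 (GRCh38) from 34787801 to 36004667, had a median log2 difference from the wild-type mean of -0.04 in S04 and 0.07 in S36, where RUNX1 itself was at 0.61 and 0.44. The mitochondrial share was 18.5% in S04 and 16.8% in S36, with 14.8% in C12 and 21.2% in C15, and its part in the RUNX1 values was not tested.

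RUNX3, which silences CD4 in cytotoxic T cells, was set apart by 1 clone. Its level was 30.6 CPM in S36, 8.94 in S04, 12.4 in C12 and 12.5 in C15, against 9.95, 12.8, 15 and 10.3 in WT10, WT13, WT28 and WT30. S36 alone stood above the wild-type range, and S04 stood below it. Over all knockout clones the log2 fold change of 0.43 had an SE of 0.35 (edgeR adjusted p = 0.590) and turned to -0.11 without S36. Without S04 the comparison of S-named clones with wild type rests on S36 alone, whose spread is then assumed to be like that of the other groups, and gave a log2 fold change of 1.35 (edgeR adjusted p = 0.0157). RUNX2, the master factor of bone formation, was near the limit of detection, with 8 to 23 counts in 7 clones and 0 in C15. A count of 0 allows up to 3 counts, or 1.21 CPM in C15, which is above the 0.483 to 1.02 CPM of the other clones, so no difference was detectable at this depth. The gene SUPT3H lies on the strand opposite RUNX2, and use of strand in counting is not given in the sources used here.

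CBFB, the shared partner of all RUNX proteins, stood highest in S04 with 140 CPM and S36 with 133, then C12 with 106 and C15 with 105, against 99.2, 88.5, 97.2 and 101 in WT10, WT13, WT28 and WT30. Every knockout clone lay above every wild-type clone, though the 260 counts of C15 give a counting interval of 92.6 to 119 CPM that reaches into the wild-type range. Its mean was 96.5 ± 5.60 CPM in wild-type and 121 ± 18.1 CPM in knockout clones (SD, n = 4 each), and over all knockout clones it did not pass (log2 fold change 0.33, SE 0.14, edgeR adjusted p = 0.302). In S-named clones CBFB rose 1.41-fold (log2 fold change 0.50, SE 0.12, edgeR adjusted p = 0.0346), and in C-named clones it was at 0.13 (SE 0.12, adjusted p = 0.852). That rise lost its call without S04 (edgeR adjusted p = 0.0764), without any 1 wild-type clone (0.0921 to 0.114) and with no low-count filter (0.164). CBFB lies on chromosome 16 from 67029116 to 67101058, where the 158 tested genes within 10 Mb had medians of -0.03 in S04 and -0.04 in S36. The C minus S difference of -0.37 (SE 0.14) had an edgeR adjusted p of 0.234.

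CBFB and RUNX1 were both raised in S04 and S36, and the ratio between CBFB and the RUNX genes overlapped between the groups. CBFB per kb over the summed RUNX level per kb was 1.01 and 1.02 in C12 and C15 and 0.868 and 0.820 in S04 and S36, against 0.912, 0.749, 0.876 and 0.958 in WT10, WT13, WT28 and WT30. On the log2 scale the groups differed by 0.089 (exact two-sided permutation p = 0.486, with 70 assignments and 0.0286 as the lowest p they allow). The SD of the log2 ratio was 0.154 in wild-type and 0.158 in knockout clones.

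The ETO family held the largest difference of the set. CBFA2T3, also called MTG16 or ETO2, was at 7.49 CPM in C12 and 14.9 in C15, and at 2.48 in S04 and 0.306 in S36, against 38.7, 59.6, 16.7 and 43.5 CPM in WT10, WT13, WT28 and WT30. Every knockout clone lay below every wild-type clone, S-named clones lay lowest, and WT28 lay nearest to the knockout clones. The S36 level rests on 4 counts (95% counting interval 0.0833 to 0.783 CPM), and the 37 counts of C15 give an interval of 10.5 to 20.6 CPM that includes the WT28 level. The mean was 39.7 ± 17.7 CPM in wild-type and 6.30 ± 6.50 CPM in knockout clones (SD, n = 4 each). The log2 fold change of -2.92 (SE 0.75) is the 20th largest in size among 14243 genes, but ranked only 284th by p and did not pass (edgeR adjusted p = 0.128). Among the 9139 genes with a mean of at least 5 CPM, the SD of log2 CPM of CBFA2T3 lay at the 99.4th percentile in wild-type clones and the 99.5th in knockout clones, at 0.78 and 2.25 against medians of 0.13 and 0.38.

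In S-named clones CBFA2T3 fell to 0.0368 of the wild-type level (log2 fold change -4.76, SE 0.77, edgeR adjusted p = 0.00923). This call held in all 13 other settings tried, with a log2 fold change of -6.99 without S04, -4.00 without S36 and values between these without any other clone, and an edgeR adjusted p of at most 0.0355 when 1 clone was left out. C-named clones gave -1.94 with an SE of 0.66 (edgeR adjusted p = 0.571). The C minus S difference of 2.82 (SE 0.81) did not pass either (edgeR adjusted p = 0.132, DESeq2 adjusted p = 0.0534), and it was 4.98 without S04 and 2 without S36. With no low-count filter CBFA2T3 also passed in the other 3 comparisons (edgeR adjusted p = 4.75e-08 for all knockout clones, 8.90e-09 for C-named clones and 1.74e-12 for C minus S). Its log2 fold changes hardly moved (-2.96, -1.99 and 2.83), while calls over all genes in the knockout comparison went from 45 to 581. These p-values thus moved with the filter and not with the size of the difference, and are not taken as stronger evidence.

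CBFA2T3 lies on chromosome 16 from 88874858 to 88977204, near the end of the long arm, and the median of the genes around it stayed within 0.26 of the wild-type mean. The 72 tested genes within 10 Mb had median log2 differences from that mean of -0.10 in C12 and 0.17 in C15, with -0.26 in S04 and 0.03 in S36. CBFA2T3 itself was at -2.25, -1.26, -3.80 and -6.43 in these clones. Less the neighbours' median, the groups differed by -3.39 (exact two-sided permutation p = 0.0286, the smallest possible, adjusted p = 0.143 over the 10 members), and by -2.37 without S36 and -4.04 without C15. A few members at the smallest p cannot pass after adjustment over 10, so the adjusted p decides nothing here. Of the nearest tested genes, shown here because of the CBFA2T3 values, TRAPPC2L was at a log2 fold change of 0.00 (SE 0.29), GALNS at -0.35 (SE 0.22) and ACSF3 at -0.39 (SE 0.24). An antisense transcript shares 501 exon bases with CBFA2T3 and had 0 counts in every clone.

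**Figure D3:**
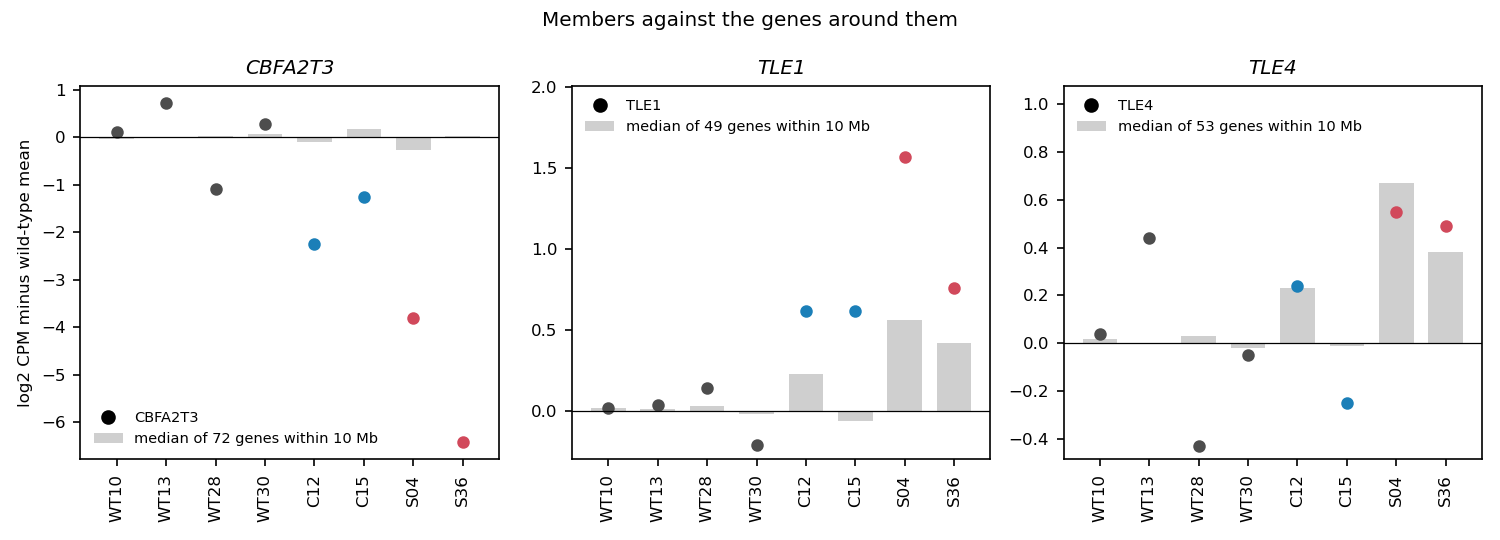
Log2 CPM minus the wild-type mean in each clone for CBFA2T3, TLE1 and TLE4 (points: wild-type grey, C-named blue, S-named red), over bars giving the median of the same quantity for tested genes within 10 Mb. The vertical axes differ between panels. CBFA2T3 reaches -6.43 in S36 where its neighbours are at 0.03, TLE1 lies above its neighbours in the 4 knockout clones, and TLE4 lies close to its neighbours in C12, S04 and S36.

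CBFA2T2, the relative of CBFA2T3 also called MTGR1, had overlapping groups. It stood at 22.7 CPM in C12 and 33.1 in C15, and at 30.3 in S04 and 28.3 in S36, against 34.3, 30.9, 28.9 and 28.5 in WT10, WT13, WT28 and WT30. Only C12 lay outside the wild-type range by more than 1 CPM. Its fold change was -0.11 in log2 (SE 0.16, edgeR adjusted p = 0.783). In C12 the 116 tested genes within 10 Mb on chromosome 20 had a median of -0.26, where CBFA2T2 was at -0.43. RUNX1T1, the ETO gene itself, was low throughout, at 0.841 to 2.60 CPM in knockout and 0.888 to 3.04 CPM in wild-type clones (log2 fold change -0.09, SE 0.45, edgeR adjusted p = 0.950). Its C15 value rests on 4 counts.

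The makeup of the ETO family followed CBFA2T3. CBFA2T3 made up 41.5%, 54.4%, 26.5% and 49.1% of the summed ETO-family level per kb in WT10, WT13, WT28 and WT30, and 16.9%, 22.1%, 4.82% and 0.679% in C12, C15, S04 and S36. CBFA2T2 made up 44.0% to 71.5% in wild-type and 76.5% to 98.2% in knockout clones. The mean share of CBFA2T3 was lower by 31.7 percentage points and that of CBFA2T2 higher by 31.0, each with groups that did not overlap and an exact two-sided permutation p of 0.0286, or 0.143 after Benjamini-Hochberg adjustment over 10 shares. No share passed that adjustment, with 2 at an unadjusted p under 0.05. As 0.0286 is the smallest p possible, so few shares could not have passed, and the adjusted p decides nothing. The 2 shares are not separate results, since RUNX1T1 took on average only 1.33% of the family in wild-type and 2.07% in knockout clones. The level of CBFA2T2 itself was at a log2 fold change of -0.11.

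**Figure D4:**
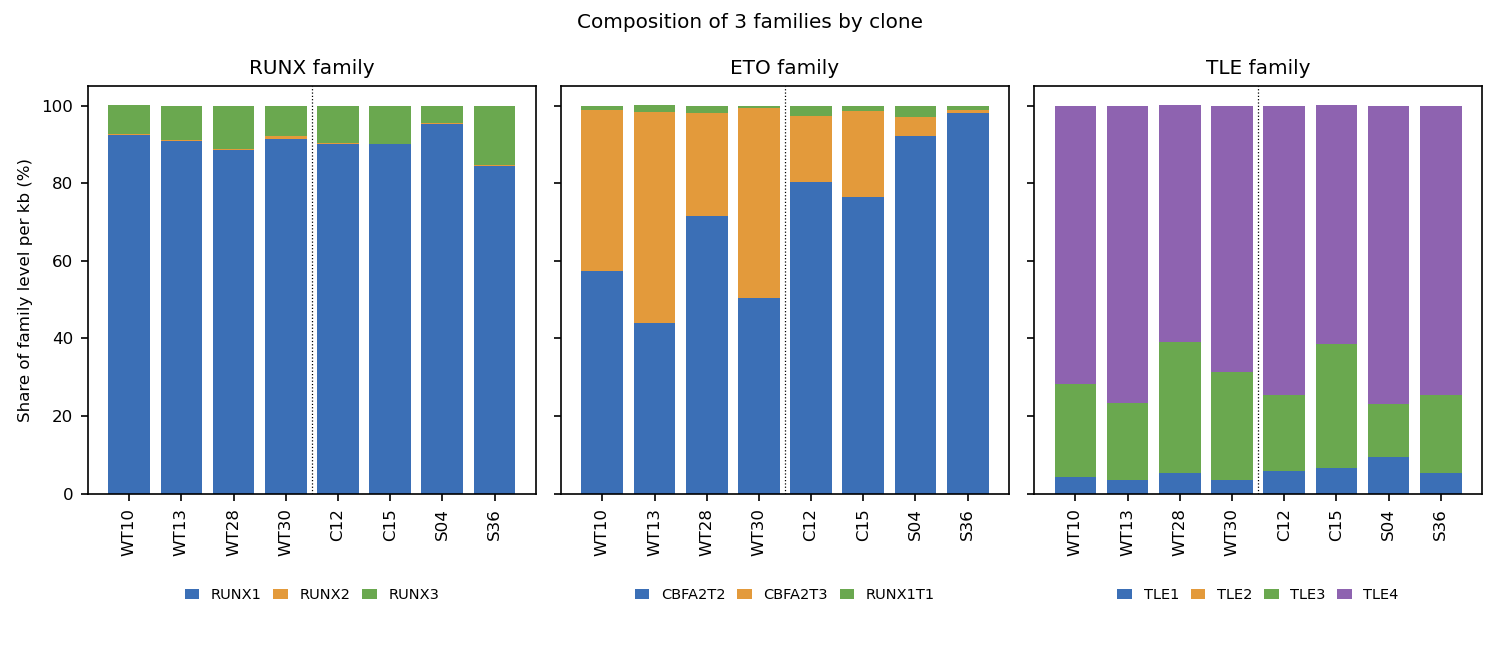
Stacked bars give each gene's share, in percent, of its family's summed level per kilobase in every clone, for the RUNX, ETO and TLE families, with the dotted line between wild-type and knockout clones. RUNX1 and TLE4 lead their families in every clone, and the CBFA2T3 share is at most 22.1% in knockout clones and at least 26.5% in wild-type clones.

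Among the TLE corepressors TLE1 was higher in every knockout clone than in any wild-type clone. C12 had 16.9 CPM of it, C15 17.0, S04 32.8 and S36 18.7, against 11.2, 11.3, 12.1 and 9.50 in WT10, WT13, WT28 and WT30. S04 stood far above the other knockout clones, and the C15 interval of 12.2 to 22.9 CPM (42 counts) stayed above the WT28 level of 12.1. The mean was 11 ± 1.10 CPM in wild-type and 21.3 ± 7.67 CPM in knockout clones (SD, n = 4 each). The log2 fold change of 0.97 (SE 0.24) did not pass by edgeR (adjusted p = 0.118) and passed by DESeq2 (adjusted p = 0.0109) and with no low-count filter (edgeR adjusted p = 0.0216). In S-named clones TLE1 rose 2.34-fold (log2 fold change 1.22, SE 0.23, edgeR adjusted p = 0.0149), and in C-named clones it was at 0.62 with an SE of 0.24 (edgeR adjusted p = 0.639). The S-named call was lost without S04 (edgeR adjusted p = 0.0526) and without WT10 (0.0502), WT13 (0.0507) or WT30 (0.0621). The C minus S difference was -0.61 (SE 0.28, edgeR adjusted p = 0.311).

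TLE1 and TLE4 are neighbours on chromosome 9, TLE4 from 79571773 to 79726882 and TLE1 from 81583683 to 81689305, and the chromosome as a whole lay above its wild-type level in knockout clones. Its 511 tested genes had median log2 differences of 0.21 in C12 and 0.37 in C15, with 0.40 in S04 and 0.35 in S36, and the part of this in the TLE1 values was not tested beyond the subtraction given here. For the 49 genes within 10 Mb of TLE1 it was 0.23, -0.06, 0.56 and 0.42. TLE1 itself was at 0.62, 0.62, 1.57 and 0.76, above both medians in each of these clones. Less the median of the 49 genes, the groups differed by 0.61 (exact two-sided permutation p = 0.0286, the smallest possible, adjusted p = 0.143 over the 10 members). Less the whole chromosome's median they differed by 0.57, with the same p values. The adjusted p again decides nothing, because a few members at the smallest p cannot pass. Of the nearest tested genes RASEF was at 1.08 (log2 fold change, SE 0.26) and CEP78 at 0.48 (SE 0.14), neither past the threshold by edgeR (adjusted p = 0.117 and 0.168).

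TLE4, the most abundant corepressor of the set, reached 207 CPM in C12 and 147 in C15, with 256 in S04 and 246 in S36, against 181, 237, 130 and 169 in WT10, WT13, WT28 and WT30. The groups overlapped, since the wild-type clones alone spread from 130 to 237 CPM. Its fold change was 0.26 in log2, SE 0.22 (edgeR adjusted p = 0.606), and less the median of its 53 neighbours it was -0.06 (exact permutation p = 0.800). TLE3 had 88.9 CPM in C12 and 124 in C15, with 74.1 in S04 and 108 in S36, where wild-type clones had 99.0 to 117. C12 and S04 lay below that range and C15 above it, with -0.12 on the log2 scale for the group difference (SE 0.17, edgeR adjusted p = 0.769). TLE4 took 60.9% to 76.5% of the summed TLE1 to TLE4 level per kb in wild-type and 61.5% to 76.9% in knockout clones. The share of TLE1 was 3.47% to 5.40% in wild-type and 5.38% to 9.35% in knockout clones (exact permutation p = 0.0571, adjusted p = 0.190). TLE2 and TLE6 had at most 5 counts in any clone. TLE5, a short family member without the WD repeats, was at -0.63 (log2 fold change, SE 0.34, edgeR adjusted p = 0.396).

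Genes whose clone patterns lay nearest to those of the members were found by the root mean square distance between log2 CPM profiles over the 8 clones, each centred on its wild-type mean. Among 8465 protein-coding genes with a mean of at least 5 CPM, AKAP12, a scaffold for protein kinase A, lay nearest to CBFA2T3 at 0.73, followed by PTPRF, a receptor phosphatase gene, at 0.87 and KANK4 at 1.01, where the median distance was 2.83. PTPRF passed the knockout comparison (log2 fold change -3.55, SE 0.48, edgeR adjusted p = 0.0239), and AKAP12 (-2.82, SE 0.63, adjusted p = 0.101) and KANK4 (-1.59, SE 0.69, adjusted p = 0.305) did not. Nearest to TLE1 were JUND, a subunit of AP-1, at 0.17, APIP at 0.19 and DOCK8, also on chromosome 9, at 0.20, against a median of 0.77. Nearest to RUNX3, through the high value in S36, were PYGB at 0.15, EVI5 at 0.16 and CCNJ at 0.19, against a median of 0.61. Distances for RUNX2 and RUNX1T1 rest on low counts, with THNSL1 (0.26), COL17A1 (0.32) and SMPD2 (0.37) nearest to RUNX2 and SOCS3 (0.29), VEGFA (0.31) and TWSG1 (0.31) nearest to RUNX1T1.

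The wider RUNX pathway was read in 7 lists of 111 genes, of which 65 were tested. By edgeR 0 passed in the knockout comparison, with 9 at an unadjusted p under 0.05 (15.5% of all genes), 2 called by DESeq2 (IKZF1 and TCF4, where it called 3.6% of all genes) and 0 by limma-voom. In S-named clones against wild type 3 of the 65 passed by edgeR, where 9.65% of all tested genes did. DESeq2 called 6 of them (13.6% of all genes), adding GFI1, RAG1 and EP300, and limma-voom 5 (12%), adding RAG1 and EP300. Among corepressor enzymes and scaffolds, with 14 tested genes and a median log2 fold change of 0.05 over all knockout clones, NCOR1 fell in S-named clones (log2 fold change -0.68, edgeR adjusted p = 0.0375) and TBL1XR1 rose (0.53, edgeR adjusted p = 0.0406). NCOR1, the platform through which ETO proteins recruit deacetylases, had 289 CPM in S04, 248 in S36, 302 in C15 and 438 in C12, against 430 ± 20.9 CPM in wild-type clones (SD, n = 4). C12 thus lay within the wild-type range of 403 to 453 CPM and the other knockout clones below it. TBL1X was at a log2 fold change of -0.45 and KDM1A at 0.28 over all knockout clones, neither past the threshold. The deacetylase gene HDAC3 was at -0.17 (SE 0.13).

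Among coactivators and modifiers of RUNX proteins, 14 tested genes with a median of 0.09, SMURF2, a ubiquitin ligase gene, rose in S-named clones (log2 fold change 0.98, edgeR adjusted p = 0.0488). EP300, an acetyltransferase and coactivator of RUNX1, had 83.0 CPM in C12 and 79.9 in C15, and 77.2 in S04 and 66.5 in S36, against 97.7 ± 1.72 CPM in wild-type clones (SD, n = 4). Its groups did not overlap, as for 10.1% of all tested genes. It passed neither over all knockout clones (log2 fold change -0.35, SE 0.12, edgeR adjusted p = 0.216) nor, by edgeR, in S-named clones (adjusted p = 0.0593), where DESeq2 and limma-voom called it lower. CDK2 was at 0.35 and SMURF1 at 0.57.

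Factors that share sites or complexes with RUNX1 or ETO proteins gave 20 tested genes with a median of -0.08, 0 of them past the threshold by edgeR and 5 at an unadjusted p under 0.05, a level that 15.5% of all genes reached. IKZF1, the lymphoid factor Ikaros, had 153 CPM in C12 and 97.3 in C15, and 120 in S04 and 147 in S36, against 192 ± 8.93 CPM in wild-type clones (SD, n = 4). Its groups did not overlap, with -0.57 as the log2 fold change (SE 0.16, edgeR adjusted p = 0.152). GATA3, a T-lineage factor, was at -0.32 (SE 0.13) and MYB at 0.31 (SE 0.13), both also without overlap and not past the threshold by edgeR (adjusted p = 0.284 and 0.311). Groups without overlap were found for 10.1% of all tested genes. The E-protein gene TCF4 was highest in the C-named clones, at 212 CPM in C12 and 208 in C15, then 151 in S04 and 66.9 in S36, against 76.1 ± 18.7 CPM in wild-type clones, at 1.06 on the log2 scale over all knockout clones (SE 0.32, edgeR adjusted p = 0.176). LMO1 was at -0.47 (SE 0.20, edgeR adjusted p = 0.289).

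Textbook RUNX targets of blood cells did not pass by edgeR in any comparison. Of all tested genes 0.316% passed for all knockout clones, 9.65% for S-named clones, 0.0351% for C-named clones and 0.358% for C minus S. Of 32 targets 14 were tested, with a median log2 fold change of -0.15 in the knockout comparison. There 0 had an unadjusted p under 0.05 by edgeR, a level that 15.5% of all genes reached. DESeq2 and limma-voom also called 0, against 3.6% and 0.66% of all genes. For so few genes 0 adjusted calls in the knockout comparison is near these shares. RAG1, a recombinase gene of antigen receptor rearrangement, was at 0.181 CPM in S04 and 0 in S36, where a count of 0 allows up to 0.229 CPM, against 0.472 to 1.13 CPM in wild-type clones. In S-named clones DESeq2 and limma-voom called it lower and edgeR did not (adjusted p = 0.0560). KLF2 was at 1.15 (SE 0.73), a value set by 88.4 CPM in S04 against 1.61 to 21.5 CPM in the other knockout clones. TRBC1, a T-cell receptor constant gene, was at 18.6 CPM in C15 and 36.5 in S36 but 209 in C12 and 266 in S04, against 206 ± 30.3 CPM in wild-type clones (log2 fold change -0.61, SE 0.63). ITGAE was at -0.30 and CCR7 at -0.57. Of 8 RUNX2 targets of bone only COL1A1 was tested, at -0.55 (SE 0.28, edgeR adjusted p = 0.379). Of the non-coding genes at the member loci only LINC00649 was tested, at -0.24 (SE 0.18, edgeR adjusted p = 0.565).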

How the data were processed

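Whole-number raw counts per gene symbol were deposited by the authors for 8 clones in 1 table. TopHat2, Subread, SAMtools and FastQC are named with hg38 per the submitters' processing notes. What each did, with which version, annotation and strand setting, is not given in the sources used here. Library totals ran from 2730285 to 25423215 counts. Genes were filtered with filterByExpr, which left 14243, scaled by TMM and tested with the edgeR 4.0.16 quasi-likelihood test in R 4.3.3, adjusting p-values by Benjamini-Hochberg over these genes at a threshold of 0.05. All 8 clones entered fits with 2 groups (knockout, wild type) or 3 (C-named, S-named, wild type). The SE of an edgeR log2 fold change was derived as its size over the square root of the F statistic of the test. Log2 values per clone had a prior count of 2. Shares, ratios and local differences were compared by exact two-sided permutation. Positions and principal transcript lengths were those of GENCODE release 29 (GRCh38), which held 57034 of the symbols, and promoters were from RefSeq. Counting intervals, at 95%, and floors cover counting error only. No pair of clones agreed within sampling noise.

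All members are named. Of each gene list the genes past the threshold and up to 4 with the smallest p are named, HDAC3, MYB, RAG1, GFI1, CD5, CD7 and the nearest genes of CBFA2T3 and TLE1 being named after their values were seen. Likeness was computed for members with an SD of log2 CPM of at least 0.5. The members and lists were chosen with earlier results of these data known. Alternatives were DESeq2 1.42.0, limma-voom (limma 3.58.1), other scalings and filters, thinning, and leaving out each clone. Tested on counts simulated for the knockout comparison with 200 of 14243 genes changed, edgeR found 36.0% of the 2-fold changes and 83.0% of the 4-fold ones, with 4.80% of its calls false. The simulation gave both groups the same spread for each gene. In the data the median SD of log2 CPM was 0.13 in wild-type and 0.38 in knockout clones, so these rates need not hold for them.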

Additional observations from a re-analysis of the deposited data

Results flagged for a closer look

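In 60 groups of 4 clones, each 1 measure of a member in the wild-type or the knockout clones, 4 had 1 clone set well apart from its group, and chance alone would set about 3 apart. TLE1 stood at a log2 CPM of 5.04 in S04, with the next knockout clone at 4.24. RUNX2 made up 0.55% of the RUNX family level in WT30, with the next wild-type clone at 0.34%, both from few counts. TLE4 made up 61.47% of the TLE family level in C15, the shallowest library, with the next knockout clone at 74.49%. RUNX1T1 lay at a log2 difference from its neighbours of -0.64 in S36, with the next knockout clone at 0.12, and rests there on 11 counts.

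RUNX1 lay above the wild-type mean in both S-named clones and below it in both C-named clones, the means differing by 0.63 in log2 CPM. The test of the difference itself had an edgeR adjusted p of 0.0803. The counting intervals of both C-named clones include the level of WT30.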

How the results depend on the processing

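Counts of genes past the threshold moved widely. For knockout against wild type the count was 45, and it was 29 with library totals only, 27 with a stricter filter, 581 with no low-count filter, 513 by DESeq2, 94 by limma-voom, 6 with C-named and 2211 with S-named clones only, 0 by edgeR in libraries thinned to the smallest (787 at an unadjusted p under 0.05), and 3 to 456 when 1 clone was left out. For C-named against S-named clones it was 51, and 14 with RLE size factors, 15 with library totals only, 762 with no filter, 626 by DESeq2, 89 by limma-voom and 0 to 749 with 1 clone left out. For S-named clones against wild type it was 1374, and 2266 with no filter and 300 to 2164 with 1 clone left out. For C-named clones against wild type it was 5, and 259 with no filter, 77 by DESeq2 and 1 to 174 with 1 clone left out. The cause of these moves was not tested. Calls of members in the knockout comparison appeared with no filter (CBFA2T3 and TLE1), by DESeq2 (TLE1) and with S-named clones only (RUNX1, CBFB, CBFA2T3 and TLE1). The alternatives for the S-named and C-named comparisons were chosen after seeing the data.

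Signs turned for several members, RUNX3 among them. Over all knockout clones RUNX1 was at -0.12 and TLE4 at -0.03 with C-named clones only and RUNX3 at -0.35 in thinned libraries, and with 1 clone left out RUNX3 ran from -0.11 to 0.65 and RUNX1T1 from -0.35 to 0.20. In S-named clones RUNX2 was at 0.02 and CBFA2T2 at 0.06 with library totals only, and with 1 clone left out RUNX2 ran from -0.61 to 0.30, RUNX3 from -0.43 to 1.35, RUNX1T1 from -1.19 to 0.42 and TLE3 from -0.53 to 0.02. In C-named clones RUNX1T1 was at 0.19 and TLE4 at 0.05 by limma-voom, and with 1 clone left out CBFA2T2 ran from -0.44 to 0.10, RUNX1T1 from -0.27 to 0.27, RUNX3 from -0.03 to 0.17, TLE3 from -0.28 to 0.20 and TLE4 from -0.29 to 0.19. For C minus S the ranges were -0.38 to 0.17 for CBFA2T2, -0.42 to 1.20 for RUNX1T1, -6.50 to 0.31 for RUNX2, -1.30 to 0.48 for RUNX3 and -0.04 to 0.50 for TLE3. The -6.50 of RUNX2 is without C12 and rests on C15 alone, which had 0 counts, so its size cannot be read. Less their neighbours' median RUNX1T1 ran from -0.31 to 0.22, RUNX3 from -0.14 to 0.45, TLE3 from -0.20 to 0.10 and TLE4 from -0.20 to 0.08, and in percentage points the family share of RUNX1 ran from -2.67 to 0.985, of RUNX3 from -0.795 to 2.81 and of TLE4 from -0.409 to 5.89. The log2 ratio of CBFB to RUNX genes ran from 0.017 to 0.147.

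No paired analysis was possible because the clone names give no number shared between the groups. The C15 library limits low members: RUNX2 and RUNX1T1 were left out by the filter on thinned libraries.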
